A study of Arabidopsis thaliana and Solanum lycopersicum with 40 samples.

Results

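The JAZ genes of Arabidopsis thaliana encode repressors of the jasmonate response, and 10 of them were followed in roots with and without shade. The genes were JAZ1 (AT1G19180), JAZ2 (AT1G74950), JAZ3 (AT3G17860), JAZ5 (AT1G17380), JAZ6 (AT1G72450), JAZ7 (AT2G34600), JAZ8 (AT1G30135), JAZ9 (AT1G70700), JAZ10 (AT5G13220) and JAZ12 (AT5G20900). They were taken by gene identifier from a table of 33557 identifiers, and the list was made with earlier results of these data known. Of the 10 genes, 9 had a mean of at least 1 FPKM over all libraries and were tested among 19553 genes, and JAZ8 did not. FPKM is the number of sequenced fragments of a transcript scaled by its length and by the mapped fragments of the library, so levels of genes of different length can be set side by side. All plants were of the accession Col-0, a wild-type laboratory strain, and carried no labelled mutation or transgene. Every seedling had 5 days of constant white light on MS agar, after which roots were collected from plants that remained in unshaded light or had been put in shade for 30 min, 3 h, 7 h, 1 d, 3 d or 5 d. Each of the 12 groups of light and time held 2 libraries, named a and b, which gave 24 libraries. The light spectrum of the shade is not given in the sources used here. Nothing in the labels says that a and b came from separate cultures, so p-values measure the spread between these samples, which may be technical.

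JAZ proteins bind transcription factors such as MYC2 and, through the adaptor NINJA or directly, recruit the corepressor TOPLESS to jasmonate-responsive genes. When the hormone jasmonoyl-isoleucine is present, the F-box protein COI1 binds JAZ proteins and they are degraded, which frees the transcription factors. Many JAZ genes are themselves switched on by MYC factors, so the pathway restrains itself, and MYC factors bind the G-box, a DNA element with the letters CACGTG.

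Sequences upstream of the genes were read because MYC factors act at such elements. The 250 bases before the annotated gene start were taken from the RefSeq genome TAIR10.1 and searched on both strands for CACGTG and for the related CACATG, which do not overlap each other. CACGTG was present upstream of 4 of the 10 genes (JAZ2, JAZ3, JAZ7 and JAZ8), against 6.49% of 27443 windows of the same length upstream of protein-coding genes. CACATG was present upstream of 2 of the 10 (JAZ9 and JAZ10), against 11.1% of the windows. A match describes letters only, and binding was not measured. The windows of JAZ9, which had the largest average shade effect of the 10 genes, and of 3 genes with CACGTG are given on the strand of the gene, with the motif in capitals (CATGTG in JAZ9 is CACATG read on the other strand). They lie at chr1:26654279-26654528 (plus strand, JAZ9), chr1:28150447-28150696 (minus strand, JAZ2), chr3:6119457-6119706 (plus strand, JAZ3) and chr2:14572780-14573029 (plus strand, JAZ7).
JAZ9: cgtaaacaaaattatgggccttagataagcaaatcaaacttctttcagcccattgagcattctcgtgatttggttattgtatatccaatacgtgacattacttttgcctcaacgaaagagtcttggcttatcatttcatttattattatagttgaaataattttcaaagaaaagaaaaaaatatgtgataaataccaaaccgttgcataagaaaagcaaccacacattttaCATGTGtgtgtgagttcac
JAZ2: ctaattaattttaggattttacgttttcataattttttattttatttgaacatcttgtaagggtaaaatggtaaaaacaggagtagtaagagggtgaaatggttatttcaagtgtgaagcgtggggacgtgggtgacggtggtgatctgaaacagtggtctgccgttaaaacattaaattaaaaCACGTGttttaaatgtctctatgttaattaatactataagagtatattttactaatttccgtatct
JAZ3: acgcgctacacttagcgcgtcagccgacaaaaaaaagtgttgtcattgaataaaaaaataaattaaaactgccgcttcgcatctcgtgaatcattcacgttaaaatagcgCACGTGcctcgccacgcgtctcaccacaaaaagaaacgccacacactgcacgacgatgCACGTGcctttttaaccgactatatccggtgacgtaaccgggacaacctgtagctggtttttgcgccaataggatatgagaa
JAZ7: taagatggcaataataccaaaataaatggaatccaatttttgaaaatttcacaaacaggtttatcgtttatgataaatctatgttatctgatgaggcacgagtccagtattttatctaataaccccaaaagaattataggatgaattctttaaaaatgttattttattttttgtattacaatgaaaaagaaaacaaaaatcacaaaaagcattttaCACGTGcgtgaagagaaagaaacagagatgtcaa
The motif begins 19 bases before the gene start in JAZ9, 66 bases before it in JAZ2 and 34 bases before it in JAZ7, and JAZ3 holds copies at 140 and 82 bases. Of the 3 tested genes with CACGTG, JAZ2 was called in the average shade effect described further on, and JAZ3 and JAZ7 were not.

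The libraries had similar FPKM sums and replicate correlations, neither of which measures RNA quality. FPKM sums ranged from 884979 to 994315, and Pearson's r between replicates, taken across genes, which are not independent replicates, from 0.977 to 0.984. The tables give no read counts, so absolute depth is unknown, but the spacing of low values put relative depth between 0.844 and 1.47. All 7 root marker genes were detected, and their summed level was 251 to 366 FPKM in shaded and 254 to 340 FPKM in unshaded libraries. Of 7 shoot marker genes, the defining genes FAMA and MUTE were at 0 in all 24 libraries, GL1 in 23 and STM in 12. The remaining 3 (RBCS1A, RCA and LHCB1.3), which encode photosynthetic proteins, were all higher in shade in the average over times. The summed level of the shoot genes was 79.6 to 165 FPKM in shaded and 41.6 to 155 FPKM in unshaded libraries. Their part in the results on JAZ genes was not tested. In whole roots, fewer cells that express a gene and less RNA per cell cannot be told apart.

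Among the 10 genes, JAZ12 and JAZ1 had the highest levels in unshaded roots. The median over 12 unshaded libraries was 51.9 FPKM for JAZ12 (range 47.2 to 55.6) and 47.5 FPKM for JAZ1 (range 42.0 to 58.7), and these ranges overlap. JAZ3 followed at 19.3 FPKM (17.6 to 22.6) and JAZ2 at 16.8 FPKM (15.0 to 20.9), again with overlapping ranges. JAZ6 had a median of 5.77 FPKM (4.71 to 7.56) and JAZ9 one of 2.35 FPKM (1.96 to 3.11), and both stood apart from their neighbours in the order, except that the range of JAZ9 met those of JAZ5, JAZ7 and JAZ10 below it. JAZ5 (1.32 FPKM), JAZ7 (1.3 FPKM) and JAZ10 (1.21 FPKM) could not be ordered, and JAZ8 was last of the 10 at 0.0948 FPKM. JAZ4 and JAZ11, JAZ genes outside the 10, had medians of 24.2 and 18.4 FPKM, near those of JAZ3 and JAZ2. JAZ1 and JAZ12 together made up 60.9% to 69.8% of the summed FPKM of the 10 genes in every library.

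**Figure D1:**
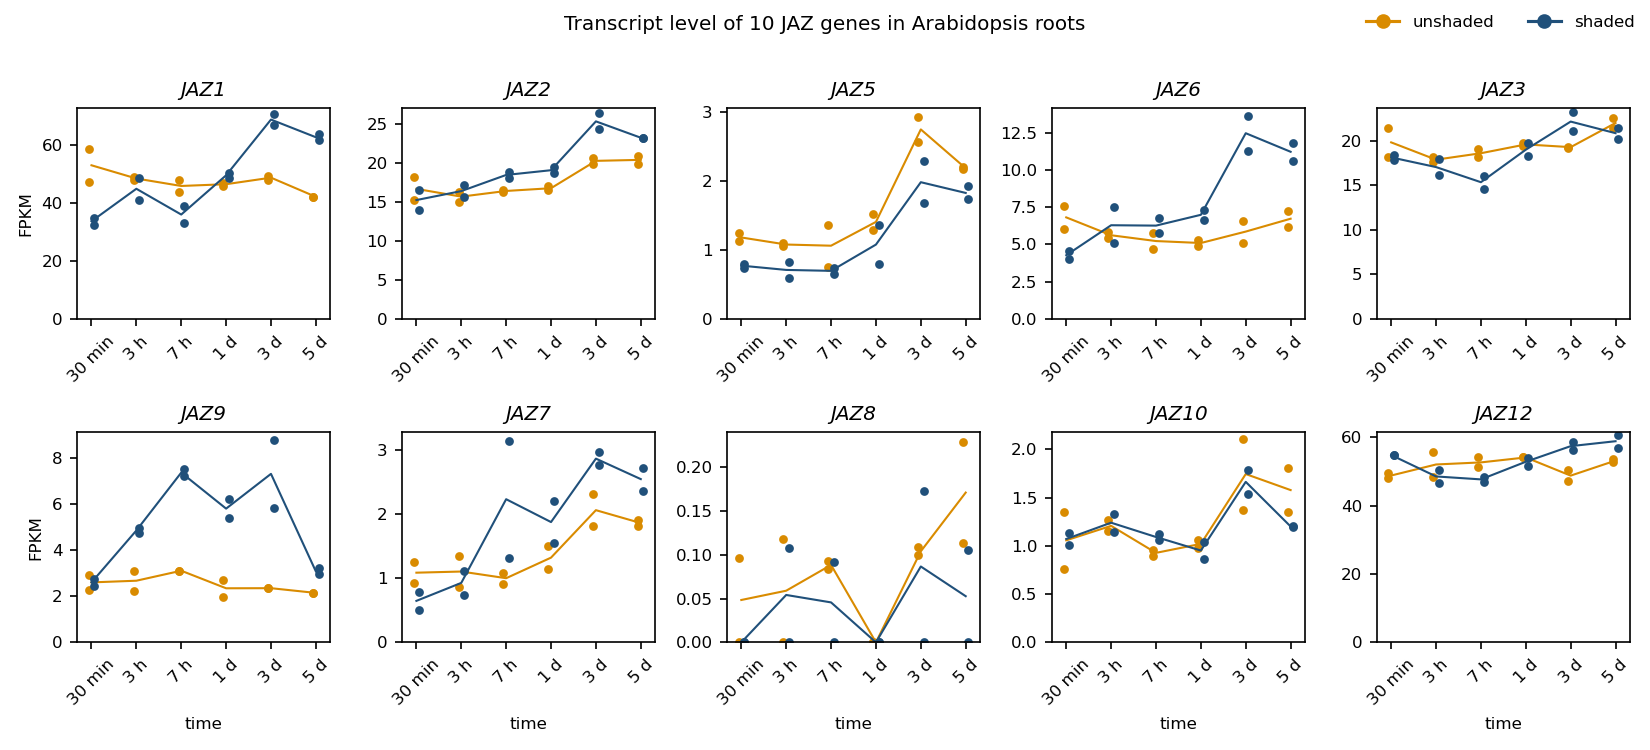
Level of each of the 10 JAZ genes in FPKM (vertical axis, linear, from 0, scaled per gene) at 6 times (horizontal axis, evenly spaced) in shaded (blue) and unshaded (orange) roots; each point is a library and lines join the means of 2 libraries. JAZ9 separates from 3 h, JAZ1 and JAZ6 start below the unshaded level at 30 min and end above it, and JAZ12 stays between 46.6 and 60.8 FPKM.

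Shade was compared with its absence at each time with limma on log2(FPKM + 1), a scale that understates changes of low genes, and a gene counts as called where its p, adjusted by Benjamini-Hochberg over all tested genes, was under 0.05. For 2 libraries against 2, no exact permutation test could give a p under 0.333, so calls rest on the spread that limma shares across groups and genes. At 30 min 2 of the 9 tested JAZ genes were called, both lower in shade, where 5.98% of all genes were called, 3.69% higher and 2.29% lower. At 3 h 1 JAZ gene was called (25.6% of all genes), at 7 h 4, of which 2 were higher and 2 lower (41.9%), and at 1 d 2, both higher (50.9%). At 3 d 6 JAZ genes were called, all 6 higher in shade, where 58.2% of all genes were called 28.6% higher and 29.6% lower. At 5 d 3 were called, all higher (55.9% of all genes, 22.2% called higher). In the average over the 6 times 4 JAZ genes were called, JAZ9, JAZ6 and JAZ2 higher and JAZ5 lower, a share below the 70.5% of all genes, of which 34.6% were called higher and 35.9% lower. The shaded and unshaded libraries did not overlap for 5 of the 9 genes at 30 min, where they did not for 51.2% of all genes, and for 2 genes at 3 h (58.9% of all genes). The groups stood apart for all 9 genes at 7 h (71.9% of all genes), for 6 at 1 d (76.3%), and for 8 both at 3 d (80.5%) and at 5 d (75.2%). At 7 h, however, a shaded and an unshaded library lay side by side for JAZ5 and for JAZ6. The median log2 fold change of the 9 genes was -0.12, -0.07, 0.12, 0.09, 0.31 and 0.18 in order of time, while that of all tested genes lay between -0.07 and 0.03. Fitted on the 4 libraries of a time alone, no JAZ gene (0) was called by limma at 30 min or at 3 h, with 4 and 2 of the 9 genes at an unadjusted p under 0.05.

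**Figure D2:**
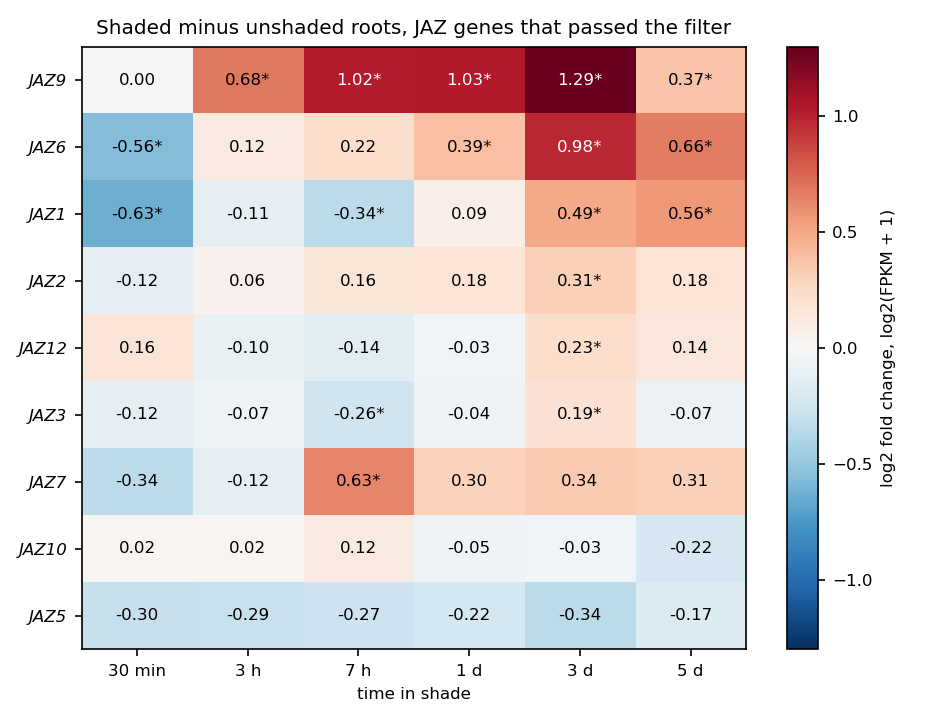
Log2 fold change of shaded over unshaded roots, on the log2(FPKM + 1) scale, for the 9 tested JAZ genes (rows) at 6 times (columns); red is higher in shade, blue lower, and an asterisk marks an adjusted p under 0.05. JAZ9 was called at 5 times, JAZ6 at 4 and JAZ1 at 4, and JAZ5 and JAZ10 at none.

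JAZ9 had the largest average shade effect of the 9 tested genes. It encodes a repressor that binds MYC2 and that has also been reported to bind the gibberellin-pathway DELLA protein RGA. In unshaded roots its level was 2.91 and 2.29 FPKM at 30 min, 2.24 and 3.10 at 3 h, 3.11 and 3.10 at 7 h, 1.96 and 2.72 at 1 d, 2.36 and 2.34 at 3 d and 2.15 and 2.13 at 5 d. In shaded roots it was 2.44 and 2.75 FPKM at 30 min, 4.74 and 4.95 at 3 h, 7.21 and 7.49 at 7 h, 5.37 and 6.21 at 1 d, 5.83 and 8.77 at 3 d and 2.94 and 3.2 at 5 d. The groups overlapped at 30 min and were apart at the other 5 times, where every shaded library was higher. The log2 fold change was 0.00 at 30 min, 0.68 at 3 h (adjusted p = 0.00408 by limma), 1.02 at 7 h (adjusted p = 8.02e-05), 1.03 at 1 d (adjusted p = 5.25e-05), 1.29 at 3 d (adjusted p = 4.39e-06) and 0.37 at 5 d (adjusted p = 0.0485), each with a standard error of 0.15. The 5 d call was lost when any of the 4 libraries at that time was left out, and the 3 h call without unshaded library a. In the average over times JAZ9 was higher by 0.73 ± 0.06 (SE, adjusted p = 4.87e-08 by limma). The effect differed between times (adjusted p = 0.00119, limma's F-test for interaction of light and time). In unshaded roots the change of JAZ9 with time did not pass the test (adjusted p = 0.341), so the course in the plot of levels is mainly that of the shaded libraries. The summed level of the shoot marker genes was higher in shade at 30 min (79.6 to 90.0 FPKM against 58.6 to 62.9), at 3 h (94.2 to 120.3 against 64.9 to 65.1), at 7 h (162 to 165 against 77.8 to 100.6), at 1 d (113 to 124 against 49.7 to 51.8) and at 3 d (99.7 to 100.1 against 41.6 to 51.7). At 5 d it was lower (81.9 to 93.3 FPKM against 127 to 155). It thus moved with JAZ9 from 3 h to 3 d and not at 30 min or 5 d, and its part in the result was not tested.

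JAZ6 and JAZ5 encode closely related repressors, with 75.5% identity over the aligned coding bases. JAZ6 was 4.0 and 4.54 FPKM in shaded roots at 30 min against 6.06 and 7.56 in unshaded ones. At 3 d it was 11.3 and 13.6 FPKM against 6.60 and 5.12, and at 5 d 11.8 and 10.6 against 6.17 and 7.27. The groups did not overlap at these times, and the order was turned between 30 min and the later times. At 3 h JAZ6 was 5.08 and 7.49 FPKM in shaded and 5.42 and 5.80 in unshaded libraries, at 7 h 6.77 and 5.74 against 4.71 and 5.74, and at 1 d 6.65 and 7.32 against 4.92 and 5.26. The groups overlapped at 3 h only, although at 7 h a shaded and an unshaded library lay side by side. The log2 fold change was -0.56 at 30 min (adjusted p = 0.0468 by limma), 0.12 at 3 h, 0.22 at 7 h, 0.39 at 1 d (adjusted p = 0.0496), 0.98 at 3 d (adjusted p = 8.28e-05) and 0.66 at 5 d (adjusted p = 0.00218), each with a standard error of 0.16. The calls at 30 min and 1 d were lost when any of the 4 libraries at that time was left out, and those at 3 d and 5 d were kept. In the average JAZ6 was higher by 0.30 ± 0.06 (SE, adjusted p = 0.000602 by limma).

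JAZ5 was lower in shade at each of the 6 times by its mean, and passed the test in the average alone. In shaded roots it was 0.741 and 0.801 FPKM at 30 min, 0.587 and 0.831 at 3 h, 0.649 and 0.742 at 7 h, 0.791 and 1.36 at 1 d, 1.68 and 2.28 at 3 d and 1.73 and 1.92 at 5 d. In unshaded roots it was 1.24 and 1.12 FPKM at 30 min, 1.10 and 1.06 at 3 h, 0.755 and 1.37 at 7 h, 1.53 and 1.28 at 1 d, 2.56 and 2.93 at 3 d and 2.20 and 2.17 at 5 d. The groups overlapped at 1 d and were apart at the other 5 times, although at 7 h a shaded (0.742) and an unshaded library (0.755) lay side by side. Single-time log2 fold changes lay between -0.34 and -0.17 and none was called, and the average was -0.26 ± 0.06 (SE, adjusted p = 0.00167 by limma). Leaving out a library gave effects from -0.48 to -0.05 at 7 h and from -0.48 to -0.19 at 3 d. JAZ5 changed with time in unshaded roots (adjusted p = 0.00132) and in shaded roots (adjusted p = 0.000393), with the highest levels of both at 3 d. The step size that best fitted its values was 0.0385 FPKM at mean depth. It put JAZ5 at 14 to 66 steps per library in shade and 21 to 76 without it. These low numbers of steps limit its precision.

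JAZ1, described in full after its values were seen, had shade effects of opposite sign at early and late times. Its product is among the JAZ proteins that are degraded through COI1, and a stabilised form makes roots insensitive to jasmonate. In shaded roots JAZ1 was 32.3 and 34.9 FPKM at 30 min, 41.1 and 48.6 at 3 h, 38.8 and 33.1 at 7 h, 48.6 and 50.3 at 1 d, 70.6 and 66.8 at 3 d and 63.7 and 61.5 at 5 d. In unshaded roots it was 47.2 and 58.7 FPKM at 30 min, 48.9 and 47.9 at 3 h, 43.8 and 47.8 at 7 h, 45.9 and 46.9 at 1 d, 49.3 and 48.0 at 3 d and 42.0 and 42.1 at 5 d. The shaded libraries were both lower at 30 min and 7 h and both higher at 1 d, 3 d and 5 d, and the groups overlapped at 3 h. JAZ1 fell by 0.63 on the log2 scale at 30 min (adjusted p = 0.000614 by limma) and by 0.34 at 7 h (adjusted p = 0.00867), and rose by 0.49 at 3 d (adjusted p = 0.000428) and by 0.56 at 5 d (adjusted p = 0.000137), each with a standard error of 0.09. These effects of opposite sign left an average of 0.01 ± 0.04 (SE), which was not called (adjusted p = 0.848), so the average hides the response of this gene. Fitted on its 4 libraries alone, the 30 min difference was not called (adjusted p = 0.123). The 7 h call was lost in that fit and without either library b at 7 h. Over time JAZ1 changed in shaded roots (adjusted p = 1.16e-06) and did not pass the test in unshaded roots (adjusted p = 0.156).

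JAZ2, the closest relative of JAZ1 with 76.4% identity over the aligned coding bases, is known for its role in stomatal guard cells in leaves. It rose with time in both light conditions, from 15.2 and 18.1 FPKM at 30 min to 20.9 and 19.8 at 5 d in unshaded roots (adjusted p = 0.00629 by limma for time) and from 16.5 and 13.9 FPKM to 23.2 and 23.2 in shaded roots (adjusted p = 1.43e-05). At 3 d it was 24.3 and 26.3 FPKM in shade against 19.8 and 20.6. That difference of 0.31 ± 0.08 (SE) on the log2 scale was the only single-time call (adjusted p = 0.00455) and was lost without shaded library b (adjusted p = 0.0522). The average was 0.13 ± 0.03 (SE, adjusted p = 0.00307), and the interaction with time was not called (adjusted p = 0.0644).

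The effects on JAZ3 and JAZ12 were small. JAZ3, which was identified through a dominant mutation that makes roots insensitive to jasmonate, was 16.1 and 14.6 FPKM at 7 h in shade against 18.1 and 19.1 without it, and 21.1 and 23.2 FPKM at 3 d against 19.2 and 19.3. It was thus called lower at 7 h (log2 fold change -0.26, adjusted p = 0.00931 by limma) and higher at 3 d (0.19, adjusted p = 0.0369). The 7 h call was lost without either library b at 7 h, and the 3 d call when any library but shaded a was left out. Neither call was made in a fit on its 4 libraries alone. JAZ12, whose protein is a known target of the ubiquitin ligase KEG, was called at 3 d only, with 58.6 and 56.1 FPKM in shade against 47.2 and 50.3 (log2 fold change 0.23, adjusted p = 0.00407, and 0.0506 without unshaded library a). Its average of 0.04 was not called (adjusted p = 0.117). After scaling libraries to equal sums the average was 0.07 and was called (adjusted p = 0.00658 by limma). With that scaling or median-of-ratios scaling, JAZ12 was also called lower at 7 h and higher at 5 d. The annotation places AT5G03235 and AT5G20910 on the opposite strand over 211 and 28 bases of JAZ12, and whether the counting used strand is not given in the sources used here, so the values of JAZ12 are uncertain to that extent.

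JAZ10, JAZ7 and JAZ8 were low in these roots. JAZ10, which is strongly induced by wounding in leaves and yields splice forms that resist degradation, ranged from 0.868 to 1.79 FPKM in shaded and from 0.764 to 2.11 FPKM in unshaded libraries. It was called at none of the 6 times, and its average was -0.02 ± 0.06 (SE, adjusted p = 0.737 by limma). It was also the only tested member not called over time in shaded roots (adjusted p = 0.137). AT5G02045 lies opposite 71 bases of JAZ10, with the same uncertainty as for JAZ12.

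JAZ7 encodes a short repressor that can bind TOPLESS directly. At 7 h it was 3.15 and 1.32 FPKM in shade against 0.918 and 1.09 without it, and the groups did not overlap. The log2 fold change was 0.63 ± 0.22 (SE, adjusted p = 0.0297 by limma). Without shaded library a, which carried the 3.15, it was 0.21 and not called (adjusted p = 0.449), so the call rests on that library, and without either unshaded library the adjusted p was 0.131 and 0.0712. At 3 d JAZ7 was 2.77 and 2.97 FPKM in shade against 2.31 and 1.82, and at 5 d 2.37 and 2.73 against 1.81 and 1.91, where every shaded library was higher and neither difference was called. At 30 min both shaded libraries were lower, with 0.509 and 0.787 FPKM against 1.25 and 0.924 (log2 fold change -0.34, not called). The groups overlapped at 3 h, where the shaded mean was lower. By its mean JAZ7 was higher in shade at 4 of 6 times and lower at 2. Its average of 0.19 ± 0.09 (SE) was not called (adjusted p = 0.0737 by limma). JAZ7 changed with time in shaded roots (adjusted p = 0.000581).

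JAZ8, whose product lacks the usual degradation signal and binds TOPLESS directly, was at 0 FPKM in 12 of 24 libraries and reached at most 0.229 FPKM. In the other libraries its values corresponded to 1 step in 10 libraries and to 2 steps in 2, where 1 step is 0.0995 FPKM at mean depth. The steps summed to 5 over shaded and to 9 over unshaded libraries. With so few steps no difference between the conditions is claimed, and JAZ8 was not tested in the main fit.

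Late and early shade effects were compared directly, as the mean effect at 1 d, 3 d and 5 d minus that at 30 min, 3 h and 7 h. Seedlings at later times were also older, so length of shade and age cannot be told apart in this difference or in the interaction. The difference was called for 6 of the 9 genes, all 6 toward higher late effects, where 49.4% of all genes were called and 21.5% in that direction. The difference on the log2 scale was 0.75 ± 0.13 for JAZ6 (SE, adjusted p = 0.000215 by limma), 0.74 ± 0.08 for JAZ1 (adjusted p = 2.42e-06), 0.33 ± 0.12 for JAZ9, 0.19 ± 0.07 for JAZ2, 0.17 ± 0.06 for JAZ3 and 0.14 ± 0.05 for JAZ12. JAZ1 and JAZ6 had the largest differences. JAZ9, in contrast, was level between the conditions at 30 min and higher in shade at 3 h and 7 h. Its effect was smaller at 5 d than at 3 d by value. The count was 2 without shaded library b at 7 h and 3 without any of shaded a at 3 h, unshaded b at 7 h, unshaded a at 3 d or shaded b at 3 d. The interaction of light and time was called for 5 genes, JAZ1, JAZ3, JAZ6, JAZ9 and JAZ12 (55.8% of all genes). In shaded roots 8 of the 9 genes changed with time (71.4% of all genes), and in unshaded roots JAZ2 and JAZ5 did (34.3%). Across the 24 libraries, which share the times and the shade, Pearson's r of log2(FPKM + 1) between the 9 genes ranged from -0.29 (JAZ5 and JAZ9) to 0.84 (JAZ2 and JAZ6), with a median of 0.44 over 36 pairs. JAZ1 and JAZ6 had an r of 0.82, and JAZ9 had an r of at most 0.43 with any other of the 9 genes.

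Of the 3 JAZ genes outside these 10, JAZ4 and JAZ11 were tested and JAZ13, a low gene, did not pass the filter. JAZ4, related to JAZ3 and JAZ9, was 24.2 and 25.7 FPKM at 7 h in unshaded and 10.6 and 10.9 in shaded roots, and at 1 d the means were 22.1 against 8.20 FPKM. JAZ4 and JAZ9 thus moved apart: at 1 d the log2 fold change was -1.32 for JAZ4 (adjusted p = 8.94e-08 by limma) and 1.03 for JAZ9. At 5 d JAZ4 was 16.5 and 15.0 FPKM in shade against 12.0 and 14.2 (0.25, adjusted p = 0.0436). JAZ11, related to JAZ12, was higher by 0.21 ± 0.02 in the average (SE, adjusted p = 4.98e-07), with 24.4 and 24.9 FPKM at 7 h in shade against 19.4 and 18.5. Its levels followed those of JAZ9 (Pearson's r = 0.909 over 24 libraries), while JAZ4 had an r of -0.61 with JAZ9.

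Related genes were then compared within each library as a log2 ratio of FPKM + 1, in which a common scale factor largely cancels. The 6 pairs were chosen after the values were seen. They are therefore given as a description, without p-values, and the ratios among JAZ3, JAZ4 and JAZ9 share the same 3 genes. Averaged over the times, the ratio of JAZ3 to JAZ9 differed by -0.80 on the log2 scale in shade (lower at 6 of 6 times) and that of JAZ4 to JAZ9 by -1.36 (lower at 6 of 6 times). The ratio of JAZ5 to JAZ6 differed by -0.57 (lower at 5 of 6 times, with 30 min the exception), and that of JAZ3 to JAZ4 by 0.56 (higher at 5 of 6 times). For JAZ1 to JAZ2 the difference was -0.12, from -0.51 to 0.38 over the times, and for JAZ11 to JAZ12 it was 0.17, from -0.18 to 0.50. Coding sequences of the pairs JAZ7 and JAZ8, JAZ3 and JAZ4, and JAZ11 and JAZ12 had 77.1%, 76.1% and 74.9% identity over aligned bases. Exact 30-base stretches within single exons were also searched for elsewhere in the nuclear genome, and stretches across exon junctions were not. Of the 10 genes only JAZ10 had any, with 4 such stretches (0.185% of those of JAZ10), so shared reads between relatives were limited to that extent.

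**Figure D3:**
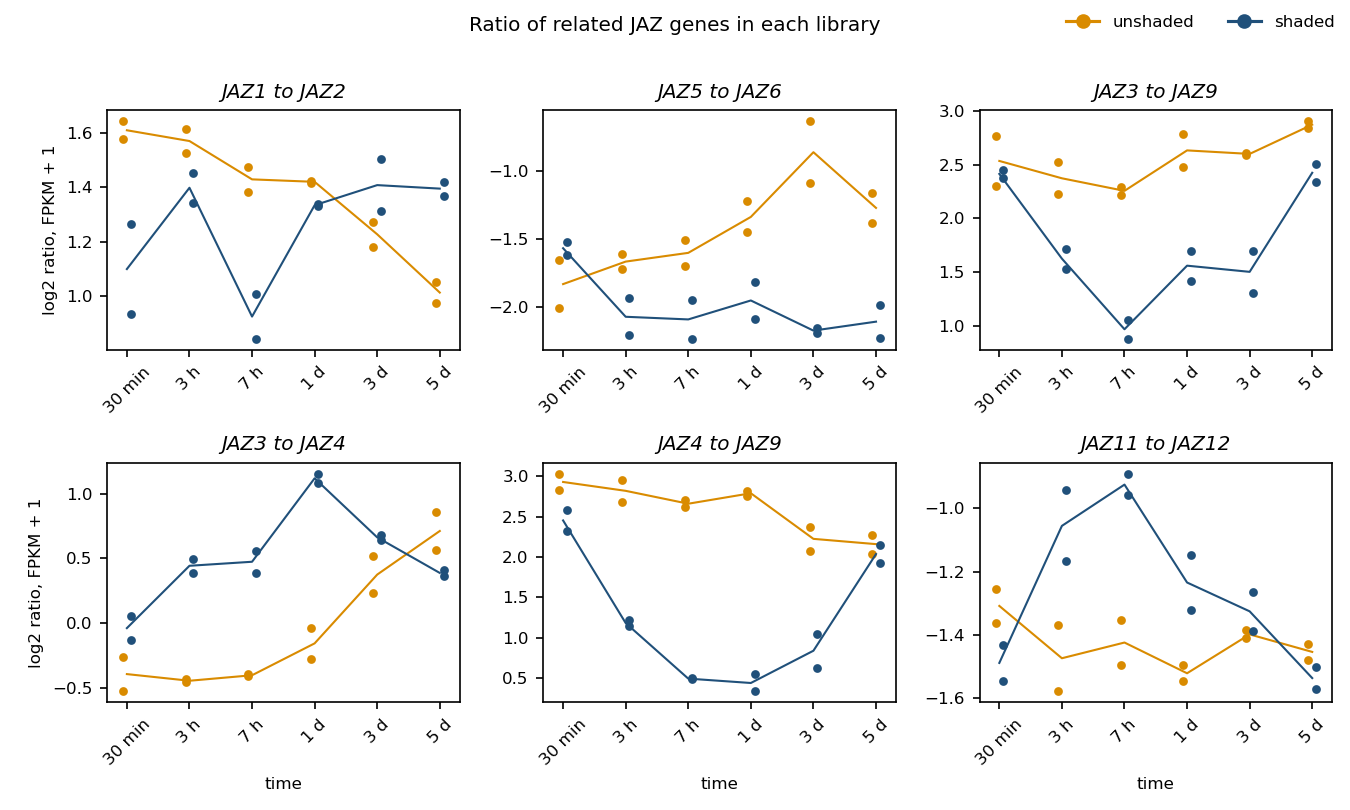
Log2 ratio of FPKM + 1 between related JAZ genes within each library (vertical axis, not starting at 0, scaled per pair) at 6 times in shaded (blue) and unshaded (orange) roots; points are libraries and lines join the means of 2. The ratio of JAZ4 to JAZ9 is lower in shade at every time, and the ratio of JAZ1 to JAZ2 is lower at 30 min and 7 h and higher at 5 d.

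The genes around the JAZ proteins were taken from lists of the jasmonate pathway and compared in the average over times, where 70.5% of all genes were called. Of 10 receptor and corepressor genes, all tested, 8 were higher and 1 lower. COI1, the receptor subunit, was higher by 0.22 ± 0.02 on the log2 scale (SE, adjusted p = 1.7e-07 by limma), TPL, which encodes TOPLESS, by 0.18, ASK2 by 0.14 and CUL1 by 0.10, the last 2 being parts of the COI1 ubiquitin ligase. The median over the 10 genes was 0.09, against -0.01 for all genes.

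Of 8 transcription factors bound by JAZ proteins 6 were tested, and 3 were higher and 2 lower. MYC3 was higher by 0.47 ± 0.03 (SE, adjusted p = 5.6e-10 by limma), MYC2 by 0.30 ± 0.03 (adjusted p = 6.72e-07) and MYC4 by 0.09, and JAM3, a repressor of jasmonate responses, changed by -0.09. MYC3 at 3 d had a mean of 57.5 FPKM in shade and 34.4 FPKM without it. MYC4 was called lower at 3 h (-0.27, adjusted p = 0.00279) and higher at 3 d (0.32, adjusted p = 0.000209) and 5 d (0.45, adjusted p = 9.79e-06). Its late effects exceeded its early ones by 0.41 ± 0.05 (SE, adjusted p = 5.03e-06), the direction also seen in JAZ1 and JAZ6.

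Of 15 genes of jasmonate synthesis 10 were tested, and 4 were higher and 3 lower. KAT2, a thiolase of peroxisomal beta-oxidation, was higher by 0.32 ± 0.02 and ACX1, an acyl-CoA oxidase of the same pathway, by 0.12 ± 0.02 (SE). AOC2, an allene oxide cyclase, changed by -0.97 ± 0.08 (SE, adjusted p = 3.8e-08 by limma) and OPCL1, which activates the jasmonate precursor for beta-oxidation, by -0.27 ± 0.02. AOC2 had a mean of 0.246 FPKM in shade and 4.58 FPKM without it at 3 d. The list therefore moved in both directions, and its median of 0.01 was close to that of all genes.

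Of 11 genes of jasmonate turnover 6 were tested, and 4 were higher and 1 lower, with a median of 0.29. JOX2, a jasmonate hydroxylase, was higher by 0.71 ± 0.05 (SE, adjusted p = 2.36e-09 by limma), with means of 81.7 FPKM in shade and 21.9 FPKM without it at 5 d. That contrast came with a fall of JOX2 in unshaded roots, from 61.9 FPKM at 30 min. IAR3, an amidohydrolase of jasmonoyl-isoleucine, was higher by 0.32 ± 0.03, and CYP94B1, which oxidises that hormone, by 0.26 ± 0.04 (SE). ST2A, a sulfotransferase, was higher by 0.43 ± 0.08 (SE) in the average, but lower at 5 d (-0.95, adjusted p = 0.000805).

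**Figure D4:**
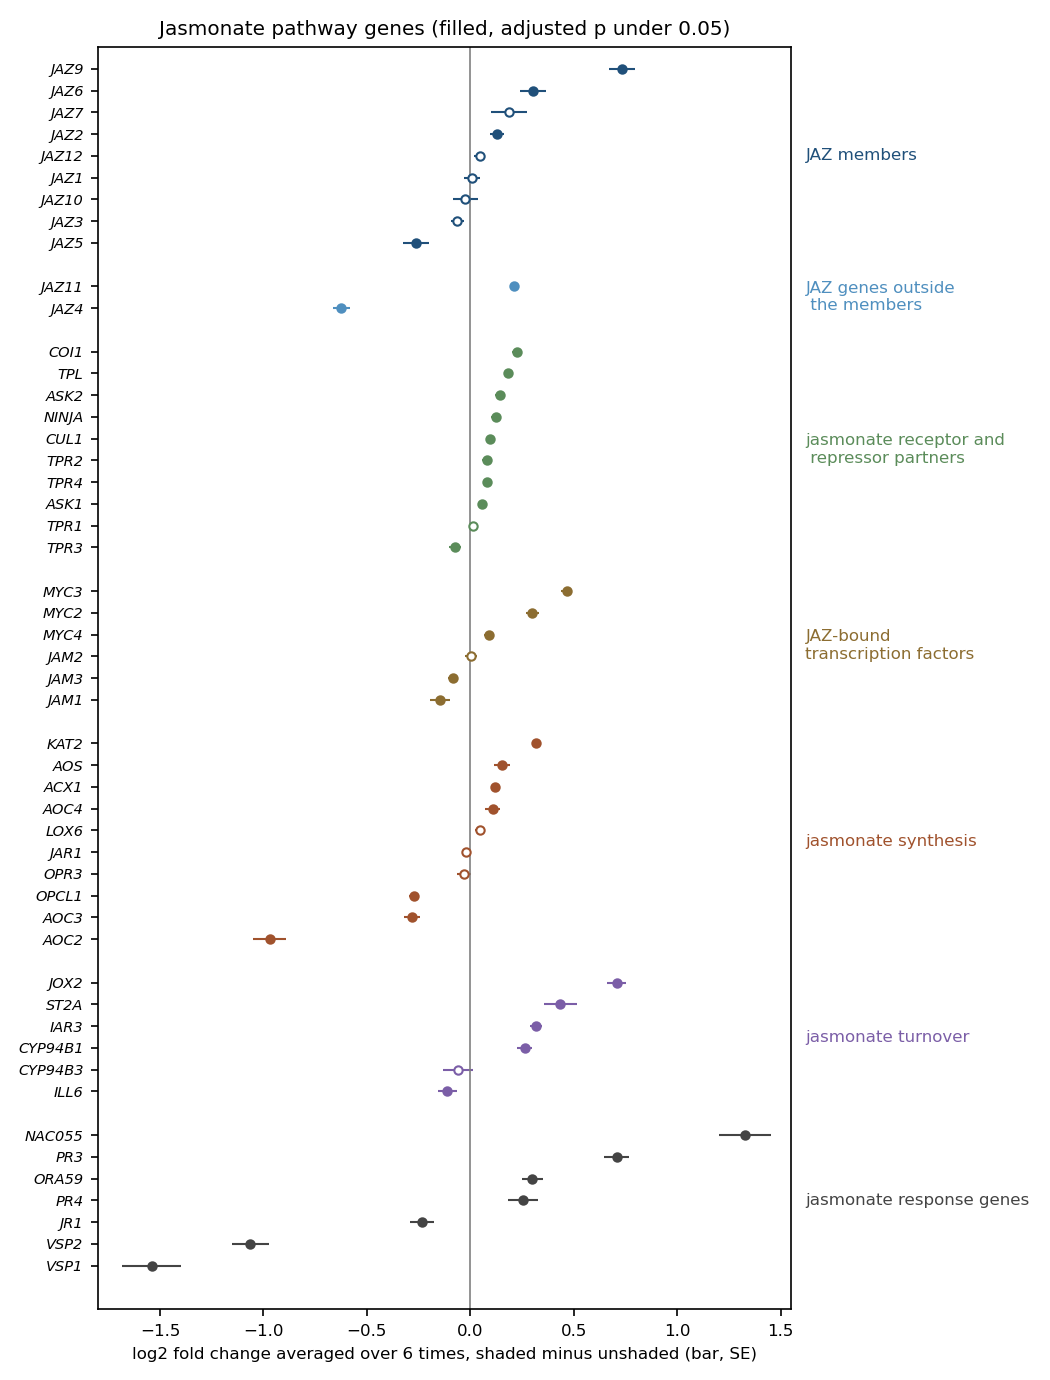
Log2 fold change averaged over 6 times (horizontal axis, shaded minus unshaded, log2(FPKM + 1) scale; bars are standard errors) for the tested genes of the jasmonate lists (vertical axis, grouped by colour); filled points had an adjusted p under 0.05. JAZ9 lies furthest right among the JAZ genes and JAZ4 furthest left, and the response genes spread from VSP1 to NAC055.

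Of 15 jasmonate response genes 7 were tested and all 7 were called, 4 higher and 3 lower. VSP1 and VSP2, the vegetative storage proteins often used as readouts of the MYC2 branch, were lower, by -1.54 ± 0.14 and -1.06 ± 0.09 on the log2 scale (SE). NAC055, a transcription factor downstream of MYC2, was higher by 1.33 ± 0.13, and PR3, a chitinase, by 0.71 ± 0.06 (SE). Genes of this list thus moved in opposite directions. Early genes of touch and wounding, which handling can raise, were 5 higher and 2 lower of 8 tested. Their summed level was 81.6 to 84.6 FPKM in shade against 95.3 to 100.3 without it at 30 min, 101.4 to 119.8 against 88.9 in both at 3 h, and 103.1 to 168 against 90.2 to 94.7 at 7 h. It was 199 to 260 FPKM against 90.4 to 96.2 at 1 d, 248 to 256 against 118 to 143 at 3 d, and 185 to 195 against 167 to 174 at 5 d. The sum was therefore lower in shade at 30 min and higher at the other 5 times. JAZ1 was called lower at 30 min and 7 h and higher at 3 d and 5 d. JAZ6 was called lower at 30 min and higher at 1 d, 3 d and 5 d. The part of the touch and wounding genes in the JAZ results was not tested.

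The genes most alike to the family were found by Pearson's r over the 24 libraries with the mean of the standardised levels of the 9 tested JAZ genes. They were EXO70H2 (r = 0.955), SULTR3;4 (0.948), ATOBGM (0.943), CYP71A21 (0.936) and BEL1 (0.935). For JAZ9 they were F2KP (r = 0.956), AT2G40935 (0.948) and AT1G18270 (0.946). These values describe libraries that share times and shade.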

How the data were processed

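RNA was measured by sequencing in 24 Arabidopsis root libraries, and 16 tomato libraries were not used here. The authors deposited FPKM values. Per the submitters' processing notes, Cufflinks 2.1.1 and the build TAIR10 were used, with no role given, and the aligner, library strand and filters are not given in the sources used here. No read counts were used here, so depth was estimated only as a ratio, from the spacing of low values. Each column was assigned to a sample by its title.

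Values were analysed as log2(FPKM + 1) for 19553 genes with a mean of at least 1 FPKM. A linear model with a mean for each of the 12 groups of light and time and an intensity trend was fitted with limma 3.58.1 (R 4.3.3), and p-values were adjusted by Benjamini-Hochberg over all tested genes. The fit was also run on simulated data with far fewer changed genes than were called here, which checks the code and not the calls. Promoter windows, gene models and coding identities came from RefSeq TAIR10.1 (Biopython 1.88), and plots were drawn with matplotlib 3.10.9. Members with full values were those with a called log2 fold change of at least 1, and otherwise the 3 with the smallest adjusted p in the average. JAZ1 and other values were added after they were seen. From each pathway list at most 4 called genes are named, by adjusted p in the average. The members and lists were chosen with earlier results of these data known. Alternatives were a pseudocount of 0.1, no filter, median-of-ratios scaling, equal sums, only the groups compared, a replicate block, and leaving out each library.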

Additional observations from a re-analysis of the deposited data

Results flagged for a closer look

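The shade effect on 5 of the 9 tested JAZ genes differed between times in limma's F-test for the interaction of light and time, a share close to the 55.8% of all genes, and the span from the lowest to the highest of the 6 log2 fold changes is given for each. JAZ6 spanned 1.54, from -0.56 at 30 min to 0.98 at 3 d (adjusted p = 0.000683). JAZ9 spanned 1.28, from 0.00 at 30 min to 1.29 at 3 d (adjusted p = 0.00119). JAZ1 spanned 1.2, from -0.63 at 30 min to 0.56 at 5 d (adjusted p = 2.19e-05), and had called effects of both signs. JAZ3 spanned 0.45, from -0.26 at 7 h to 0.19 at 3 d (adjusted p = 0.0327). JAZ12 spanned 0.37, from -0.14 at 7 h to 0.23 at 3 d (adjusted p = 0.00611). Groups held 2 libraries, so no search for outlying libraries was made.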

How the results depend on the processing

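No member's fold change reversed as a called value. Among recomputed member fold changes that left out no library, 349 kept their side of the threshold, 11 lost and 9 gained a call; among those that left out a library these numbers were 397, 25 and 10. The count of JAZ genes called at 30 min was 1 without the filter and 0 with only the groups compared, which also gave 0 at 3 h and 1 at 7 h; over all genes that fit called 176 at 30 min and 1593 at 3 h. At 1 d the count was 1 with median-of-ratios scaling and 1 without the filter, and at 5 d it was 5 with median-of-ratios scaling. Equal sums likewise gave 5 at 5 d, and 5 for time in unshaded roots. The cause was not tested. Leaving out each library gave 1 to 1 at 30 min, 0 to 2 at 3 h (the 0, without unshaded library a, with 1 gene at an unadjusted p under 0.05 by limma), 1 to 4 at 7 h, 1 to 1 at 1 d, 2 to 6 for late against early effects, 2 to 5 for time in unshaded roots, and 0.150 to 0.187 for the ratio of JAZ11 to JAZ12. The letters a and b are not stated to pair samples, and deviations of same-letter libraries correlated between -0.172 and 0.172. With the replicate block the counts stayed at 2, 1, 4, 2, 6 and 3 in order of time, 4 in the average and 8 for time in shaded roots, and time in unshaded roots went from 2 to 3. Unknown depth limits the low genes JAZ5, JAZ7, JAZ8 and JAZ10 most.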

Other observations

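The storage protein genes moved on different schedules. VSP2 was close to 0 in unshaded roots up to 1 d, with a mean of 0.422 FPKM there, and then reached 27.3 FPKM at 3 d and 106 FPKM at 5 d, against 2.0 and 8.16 FPKM in shade (log2 fold changes -3.24 and -3.56, adjusted p = 1.68e-08 and 9.14e-09 by limma). VSP1 was already lower at 3 h, with means of 13.1 FPKM in shade and 29.4 FPKM without it (-1.15, adjusted p = 0.025), and at 3 d it was 24.2 against 157 FPKM (-2.67, adjusted p = 1.19e-05). At 30 min VSP2 was higher in shade, at 1.68 against 0.167 FPKM (adjusted p = 0.0037).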
